A study of Homo sapiens with 12 samples.

Results

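The set described here holds 41 genes of the NRF2 antioxidant program, chosen by gene name: aldo-keto reductases, detoxification enzymes, glutathione and thioredoxin genes, NADPH-supplying enzymes and the regulators of the pathway. The list was drawn up with earlier results of these data known. Shares of members called, set below against all genes, therefore only describe this list. Of the 41 members, 38 were among the 15601 genes measured across all 12 libraries. AKR1B15, GPX2 and SRXN1 were not listed there, so their RNA is not described. GPX2 and SRXN1 enter the counts of promoter windows below. RNA of the human hepatocellular carcinoma line SNU449 was sequenced from the 3′ ends of transcripts, in 4 groups of 3 libraries each. SNU449 and its derivative lacking Axl, a receptor tyrosine kinase (SNU449-Axl-), were each studied as control (naïve) cells and as Rego-resistant cells, made by stepwise increases of the multikinase inhibitor Regorafenib (Rego). The 3 libraries of a group are technical replicates of 1 cell population, so p-values measure only the spread between libraries. With 1 population per group, effects of Axl loss or of Rego resistance cannot be told apart from other differences between the populations. Axl had been disrupted with CRISPR/Cas9, and the edited site relative to the sequenced 3′ end is not given in the sources used here. The labels call the resistant libraries plus Rego, and their growth text, shared by all samples, has Rego added after each splitting. Whether the drug was present when RNA was isolated is not stated, so the Rego comparisons do not separate resistance from drug exposure.

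As background, NRF2 (encoded by NFE2L2) is a transcription factor that KEAP1 holds at a low level by marking it for degradation. When electrophiles or oxidants modify KEAP1, NRF2 accumulates, pairs with a small MAF protein and binds antioxidant response elements near genes for detoxification, glutathione and NADPH supply, while BACH1 competes for the same elements.

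Library values come from the deposited tables and were read here as normalized scores on a linear scale. How they were made is not stated. Differences are log2 differences of score + 1, given ± their standard error (SE). A gene was called when its limma adjusted p, over all 15601 genes, was under 0.05. "Rose" and "fell" mean called. The scores compress low values: the median level was 4.74 on the log2 scale at a mean normalized count of 2 and 5.23 at 10, against 9.91 at 1000. Differences of weakly expressed genes are therefore understated. In bulk RNA, fewer expressing cells and less RNA per cell cannot be told apart. A pair table is the deposited table of only the 2 groups compared. Where leaving out a library ended a call, the largest adjusted p and the log2 range over the 12 such fits are given. Fits without the replicate block count more residual degrees of freedom than the values hold. Single libraries are named by group and number, as in SNU449 Rego 2 for library 2 of Rego-resistant SNU449.

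AXL, the targeted gene, scored 727, 941 and 715 in control SNU449 and 1237, 815 and 1271 in Rego-resistant SNU449. In SNU449-Axl-, AXL scored 35, 53 and 33 in control and 50, 38 and 52 in Rego-resistant cells. Every SNU449-Axl- library lay below every SNU449 library. The AXL difference, SNU449-Axl- minus SNU449, was -4.29 in control cells (SE 0.235, limma, adjusted p = 2.16e-09) and -4.52 in Rego-resistant cells (SE 0.235, limma, adjusted p = 1.27e-09). AXL's value between Rego-resistant lines was -3.49 in its pair table.

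With Rego resistance, most members called in SNU449 were lower, and most members called in SNU449-Axl- were higher. In SNU449, 11 of the 38 members were called (28.9%), 9 of them lower, against 7.81% of all genes. The count was 6 with spike-in centring, 4 in the pair table and 5 to 11 when 1 library was left out (5 without SNU449 control 1, SNU449 Rego 1 or SNU449 Rego 2). Over all genes, 992 were called with spike-in centring and 603 of 13836 in the pair table, against 1219. Leaving out 1 library gave 740 to 1299 (968, 875 and 780 without SNU449 control 1, SNU449 Rego 1 and SNU449 Rego 2). Of all genes 4.31% were called higher and 3.5% lower. The members that fell included thioredoxin reductase TXNRD1 (-1.30), the aldo-keto reductase AKR1C3 (-1.27) and glutathione reductase GSR (-1.05). The 2 that rose were the lipid peroxidase GPX4 (1.41) and haem oxygenase HMOX1 (0.93). The median over the 38 members was -0.38, against 0.0 over all genes. Of the cell type markers, FN1 (-2.24) and LUM (-1.10) fell in this comparison. COL1A1, a fibroblast or stellate marker like LUM, was higher but not called (1.97, limma, adjusted p = 0.0558).

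In SNU449-Axl-, Rego-resistant cells had higher scores for most of the set. Here 8 members were called (21.1%), 7 higher and 1 lower, against 4.35% of all genes (2.54% higher, 1.81% lower). Without the replicate block 15 members were called, and 3 to 12 when 1 library was left out (3 without SNU449-Axl- Rego 2). Over all genes, 1552 were called without the block, against 678. Leaving out 1 library gave 205 to 891 (205 without SNU449-Axl- Rego 2). AKR1B10 rose by 3.42 (log2), AKR1C3 by 1.72 and the glutathione synthesis gene GCLC by 1.40, while AKR1B1 fell by 0.84. The members' median was 0.49, against 0.01 over all genes. The markers FGB (2.49) and FN1 (2.47) rose and COL1A1 (-2.79) fell here. The other mesenchymal-like markers were not called: VIM (-0.4), CDH2 (-0.66) and SPARC (-0.19) were negative, and ZEB1 (0.38) and AXL (0.22) positive. AKR1C2 and AKR1C3 were called in both backgrounds, lower in SNU449 and higher in SNU449-Axl-.

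The difference between the 2 Rego effects (SNU449 minus SNU449-Axl-) was tested directly. It was called for 15 of the 38 members (39.5%), against 5.87% of all genes, and all 15 were negative, where 2.92% of all genes were called negative and 2.95% positive. Most members are well expressed. Among genes with a mean normalized count above 50, it was called for 15 of 37 members and 652 of 8189 genes. Leaving out 1 library gave 10 to 18 called members, with 523 to 922 of all genes called, against 916. The lowest counts, 10 members and 523 of all genes, came without SNU449-Axl- Rego 2. In each of the 15 called members, SNU449-Axl- Rego 2 scored highest of its group, so the calls are not independent of each other. The median over the members was -0.85, against -0.01 over all genes. Among markers the difference was called for FN1 (-4.71), FGB (-2.38), LUM (-0.97) and COL1A1 (4.76). Of the 38 members, 25 (65.8%) had a negative Rego difference in SNU449 and a positive one in SNU449-Axl-, a combination found in 24.7% of all genes. A further 7 were positive in both backgrounds (18.4%, against 26.0% of all genes), 2 were negative in both (5.26% against 25.3%) and 4 had the opposite combination (10.5% against 23.6%).

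**Figure D1:**
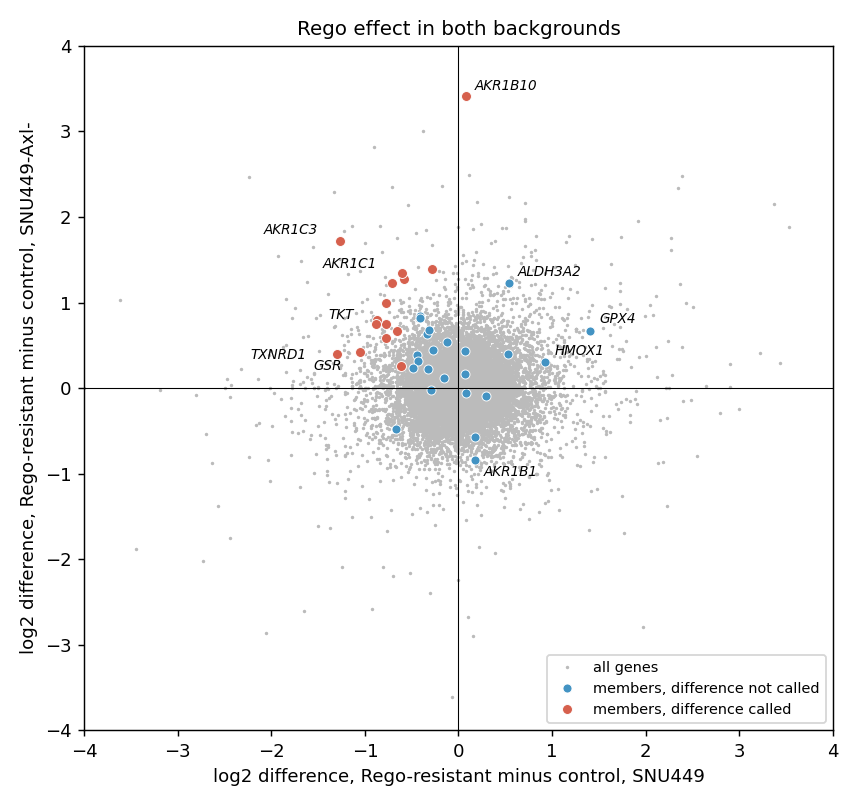
Rego effect in each background for all 15601 genes (grey) and the 38 members (blue, or red where the difference between backgrounds was called). Each axis is the log2 difference of score + 1, Rego-resistant minus control, in SNU449 (horizontal) and SNU449-Axl- (vertical), drawn to 4 in each direction with 10 genes outside.

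The 2 lines were also compared with each other. In control cells, loss of Axl came with 10 called members (26.3%), 6 lower and 4 higher, against 7.45% of all genes (4.03% higher, 3.43% lower). Without the replicate block 16 were called, and 4 to 13 when 1 library was left out (4 without SNU449 control 1). Over all genes, 2182 were called without the block, against 1163. Leaving out 1 library gave 540 to 1275 (708 without SNU449 control 1). AKR1C3 (-1.60), the cystine transporter SLC7A11 (-1.56) and thioredoxin TXN (-1.31) fell most, and HMOX1 (1.27), GPX4 (1.01), AKR1B1 (1.0) and KEAP1 (0.78) rose. In Rego-resistant cells, loss of Axl came with 9 called members (23.7%), all higher, against 4.37% of all genes (2.44% higher, 1.93% lower). The count was 22 with spike-in centring, 14 in the pair table and 3 to 14 when 1 library was left out (3 without SNU449-Axl- Rego 2). Over all genes, 1799 were called with spike-in centring and 1160 of 14165 in the pair table, against 682. Leaving out 1 library gave 219 to 826 (219 without SNU449-Axl- Rego 2). The 9 were led by AKR1B10 (2.83), AKR1C3 (1.39) and the pentose phosphate enzyme transketolase, TKT (1.33). The members' median was -0.41 in control cells and 0.53 in Rego-resistant cells, against 0.0 and 0.01 over all genes. Of the markers other than AXL, COL1A1 (3.14), KRT8 (0.79) and AFP (0.67) rose and FN1 (-2.25) fell in control cells, and FGB (3.44), FN1 (2.46) and KRT8 (1.58) rose in Rego-resistant cells. The 5 comparisons share groups: control SNU449, for example, enters both the Rego comparison in SNU449 and the Axl comparison in control cells.

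When the spike-in RNAs set the scale, the median of all genes was 0.05 and 0.14 in the Rego comparisons of SNU449 and SNU449-Axl-. It was 0.21 and 0.31 in the Axl comparisons of control and Rego-resistant cells, and -0.1 in the difference between backgrounds. This centring moves every gene of a comparison by the same amount. The members' median was then -0.33, 0.63, -0.2, 0.82 and -0.94 in the same order, against -0.38, 0.49, -0.41, 0.53 and -0.85 on the deposited scaling. Among all genes called with this centring, the share called higher was 84.2% in place of 58.4% in the Rego comparison of SNU449-Axl- (585 higher and 110 lower, against 396 and 282). In the Axl comparison it was 84.5% in place of 54.0% in control cells (1257 and 231, against 628 and 535). It was 96.2% in place of 55.9% in Rego-resistant cells (1731 and 68, against 381 and 301). For the difference between backgrounds it was 36.6% in place of 50.3% (265 and 460, against 461 and 455). Directions below are relative to the deposited scaling, and no called member result changed sign with spike-in centring.

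**Figure D2:**
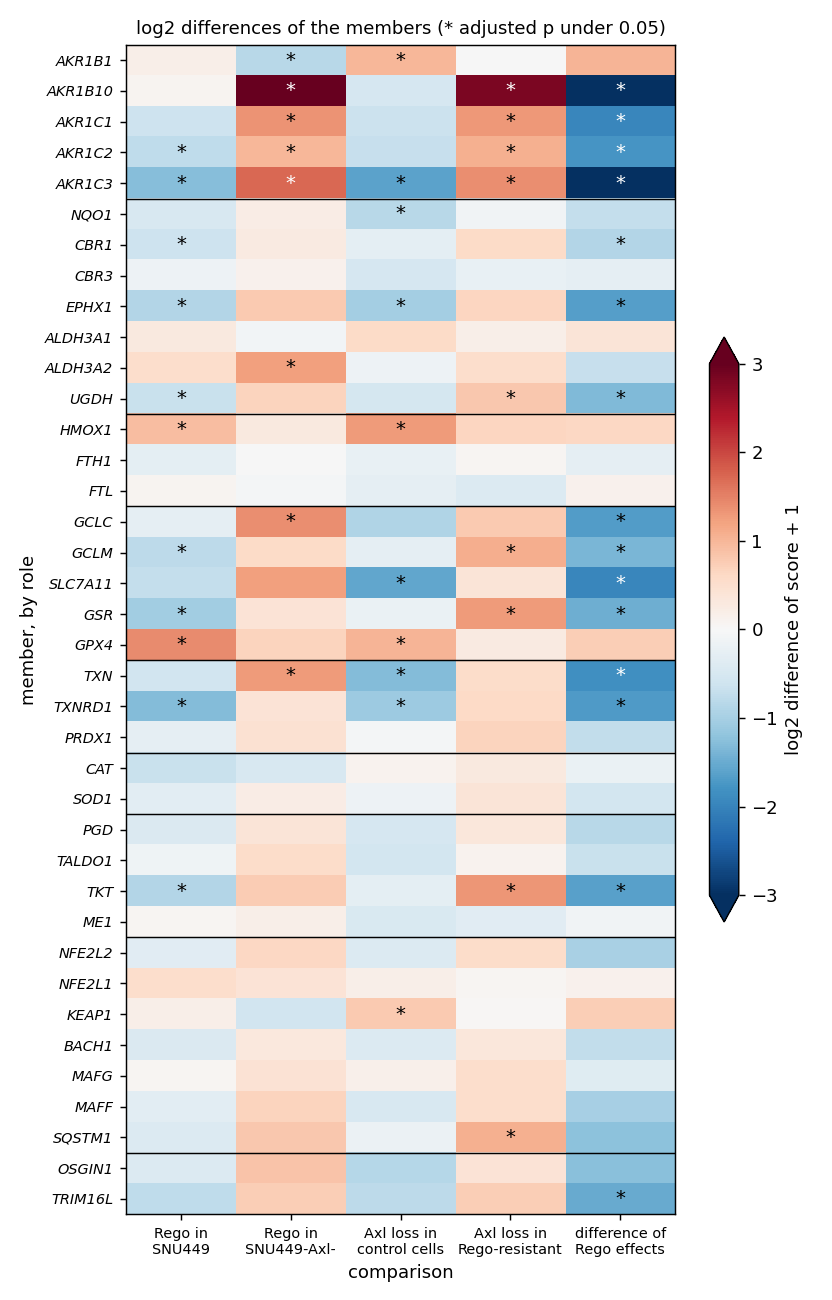
Log2 difference of score + 1 (colour) for the 38 measured members, ordered by role with black lines between roles, in the 5 comparisons; asterisks mark a limma adjusted p under 0.05 and colours saturate at 3 in either direction. The last column is the Rego effect in SNU449 minus that in SNU449-Axl-, negative in all 15 called members, from -0.87 for CBR1 to -3.34 for AKR1B10.

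Promoter windows of the members were searched for the core of the antioxidant response element. The core TGACNNNGC was searched on both strands (GCNNNGTCA on the other) in RefSeq promoter windows of GRCh38.p14, 300 bases each, from 250 before to 50 after a transcript start. It can overlap the AP-1 element TGACTCA. Windows were found for 30 of the 41 members, 46 in all. AKR1B10, AKR1B15, CBR3, ALDH3A1, HMOX1, FTH1, SLC7A11, GSR, PRDX1, SOD1 and TRIM16L had no entry. The core stood in 10 of the 46 windows (21.7%), against 4687 of all 35116 windows (13.3%). By gene it stood in 9 of 30 members (30%), against 4384 of 27305 genes (16.1%). Those 9 were CBR1, EPHX1, GCLM, GPX2, KEAP1, MAFF, ME1, PGD and TXNRD1. Of the 11 members with a window and a called difference between backgrounds, 4 had the core: GCLM, TXNRD1, EPHX1 and CBR1. Their 250 bases before the start are printed 5′ to 3′ on the gene's strand, with the core or its reverse complement in capitals, to show where it lies among members that moved together. GCLM (chr1:93909431-93909680, minus strand) has it 34 bases before the start. TXNRD1 has it in 2 windows (chr12:104215529-104215778 and chr12:104286782-104287031, plus strand), 99 and 102 bases before the start, and a further core in the former window begins 8 bases before the start and runs past the bases printed. In EPHX1 (chr1:225825104-225825353, plus strand) it lies 78 bases before an internal start, and in CBR1 (chr21:36069774-36070023, plus strand) 159 bases before. A match of letters does not show binding. A window without the core does not show that a gene lacks the element, because bases outside the windows were not searched.
GCLM: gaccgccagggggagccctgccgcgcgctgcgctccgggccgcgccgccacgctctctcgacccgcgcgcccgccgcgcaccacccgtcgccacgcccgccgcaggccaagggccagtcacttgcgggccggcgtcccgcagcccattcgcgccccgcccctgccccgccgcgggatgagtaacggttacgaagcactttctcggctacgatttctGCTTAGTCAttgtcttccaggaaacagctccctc
TXNRD1, upstream start: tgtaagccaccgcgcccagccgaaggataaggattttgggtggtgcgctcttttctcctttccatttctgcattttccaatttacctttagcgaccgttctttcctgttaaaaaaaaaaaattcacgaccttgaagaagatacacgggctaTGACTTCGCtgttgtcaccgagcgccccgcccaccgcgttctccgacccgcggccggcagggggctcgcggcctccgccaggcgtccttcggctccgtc
TXNRD1, downstream start: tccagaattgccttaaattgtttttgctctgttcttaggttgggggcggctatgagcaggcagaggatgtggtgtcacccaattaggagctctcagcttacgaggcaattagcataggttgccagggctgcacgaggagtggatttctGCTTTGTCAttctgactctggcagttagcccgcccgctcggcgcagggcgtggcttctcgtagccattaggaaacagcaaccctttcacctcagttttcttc
EPHX1: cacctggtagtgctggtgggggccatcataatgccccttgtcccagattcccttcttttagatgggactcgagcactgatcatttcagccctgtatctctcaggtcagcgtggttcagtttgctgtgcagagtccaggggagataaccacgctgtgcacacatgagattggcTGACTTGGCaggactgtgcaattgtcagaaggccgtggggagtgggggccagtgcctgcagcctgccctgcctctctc
CBR1: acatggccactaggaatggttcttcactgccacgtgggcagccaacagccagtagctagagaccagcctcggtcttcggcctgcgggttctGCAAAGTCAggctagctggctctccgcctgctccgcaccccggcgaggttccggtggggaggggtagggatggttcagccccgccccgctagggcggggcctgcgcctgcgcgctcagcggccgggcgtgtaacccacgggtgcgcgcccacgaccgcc

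The aldo-keto reductases reduce aldehydes and ketones with NADPH, and AKR1C enzymes also act on steroids and prostaglandins. All 5 measured genes were called with Rego resistance in SNU449-Axl-, 4 higher and 1 lower, against 4.35% of all genes. AKR1B1, AKR1C1 and AKR1C2 each lost this call without SNU449-Axl- control 2 or 3 or SNU449-Axl- Rego 1 or 2. In SNU449, AKR1C2 and AKR1C3 fell (40% of the 5, against 7.81% of all genes) and the other 3 were not called. AKR1B1 and AKR1B10 lie next to each other on chromosome 7 (chr7:134442356-134459284 and chr7:134527567-134541412, GRCh38). AKR1C1, AKR1C2 and AKR1C3 lie on chromosome 10 (chr10:4963253-4983283, chr10:4987775-5018031 and chr10:5035354-5107686). The AKR1C genes resemble each other: of the 50-base words in the last 400 bases of the AKR1C2 transcript, 59.3% also occurred in AKR1C1, and of those of AKR1C3 12.5% occurred in other AKR1C genes. STAR was run with up to 1000 hits per read and gave counts per gene. Whether reads with several hits were counted is not stated, so the values of AKR1C2 and AKR1C3, and of AKR1C1 with them, are uncertain to that extent. AKR1B1 and AKR1B10 shared no such word with another gene.

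AKR1B10, an aldo-keto reductase that converts retinal and lipid aldehydes, had the largest difference between backgrounds among the members. AKR1B10 (ENSG00000198074.10) scored 132, 114 and 110 in control SNU449 and 123, 114 and 139 in Rego-resistant SNU449. In SNU449-Axl-, AKR1B10 scored 103, 60 and 91 in control and 650, 1395 and 785 in resistant cells. All 3 Rego-resistant SNU449-Axl- libraries lay above every library of the other groups, which ranged from 60 to 139. The rise with Rego resistance in SNU449-Axl- was 3.42 (SE 0.26, limma, adjusted p = 5.25e-07), a 10.7-fold higher score. In SNU449 the difference was 0.08 (limma, adjusted p = 0.909), with overlapping libraries. Rego-resistant SNU449-Axl- cells exceeded Rego-resistant SNU449 cells by 2.83 (SE 0.26, limma, adjusted p = 3.41e-06). The difference between backgrounds was -3.34 (SE 0.367, limma, adjusted p = 3.44e-05). These calls were kept under every alternative tried. AKR1B10's value in SNU449-Axl- was 2.54 in its pair table. As a description without error, the tables of pairs of groups gave mean normalized counts for AKR1B10 of 96.7, 70.9, 84.5 and 1080 in control SNU449, Rego-resistant SNU449, control SNU449-Axl- and Rego-resistant SNU449-Axl-. Those counts left a residual of 14.4%, and on their scale the median gene differed by -0.19, 0.03, 0.15 and 0.37 (log2) in the 4 comparisons of groups.

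AKR1C3, which makes testosterone and prostaglandin F, was called in all 5 comparisons. AKR1C3 (ENSG00000196139.14) scored 6833, 4264 and 9906 in control SNU449 and 2692, 2840 and 2685 in Rego-resistant SNU449. In SNU449-Axl-, AKR1C3 scored 2085, 2229 and 2237 in control and 7408, 10522 and 4773 in resistant cells. Every library of control SNU449 and of Rego-resistant SNU449-Axl- lay above every library of the other 2 groups. AKR1C3 fell with Rego resistance in SNU449 (-1.27 ± 0.28, limma, adjusted p = 0.00786) and rose in SNU449-Axl- (1.72 ± 0.28, limma, adjusted p = 0.00145). Between the control lines it was lower in SNU449-Axl- (-1.60 ± 0.28, limma, adjusted p = 0.00166). Between the Rego-resistant lines it was higher there (1.39 ± 0.28, limma, adjusted p = 0.00749). The difference between backgrounds was -2.99 ± 0.396, limma, adjusted p = 0.000179. AKR1C3's call in SNU449 was lost without SNU449 control 3 (limma, adjusted p up to 0.0524, log2 -1.69 to -0.88). AKR1C3's call between Rego-resistant lines was lost without SNU449-Axl- Rego 1 or 2 (limma, adjusted p up to 0.0948, log2 1.03 to 1.79).

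AKR1C1 and AKR1C2, which inactivate progesterone and other steroids, both rose with Rego resistance in SNU449-Axl-. AKR1C1 (ENSG00000187134.14) scored 8178, 6501 and 11995 in control SNU449 and 4508, 6292 and 6367 in Rego-resistant SNU449. In SNU449-Axl-, AKR1C1 scored 7416, 4374 and 5188 in control and 13768, 21044 and 9502 in resistant cells. Its Rego-resistant SNU449-Axl- libraries lay above all other SNU449-Axl- and all Rego-resistant SNU449 libraries. AKR1C1 rose with Rego resistance in SNU449-Axl- (1.34 ± 0.288, limma, adjusted p = 0.0116) and was higher in SNU449-Axl- among Rego-resistant cells (1.31 ± 0.288, limma, adjusted p = 0.0133). In SNU449 its difference was -0.61 ± 0.288, limma, adjusted p = 0.234, not called, although its Rego-resistant libraries lay below the control ones. The difference between backgrounds was called (-1.95 ± 0.408, limma, adjusted p = 0.00761). AKR1C2 (ENSG00000151632.18) scored 8874, 6671 and 10231 in control SNU449 and 4092, 5570 and 5304 in Rego-resistant SNU449. In SNU449-Axl-, AKR1C2 scored 5935, 4622 and 5134 in control and 10472, 13141 and 8100 in resistant cells. Here too the groups did not overlap within either background. AKR1C2 fell in SNU449 (-0.77 ± 0.224, limma, adjusted p = 0.0394), rose in SNU449-Axl- (0.99 ± 0.224, limma, adjusted p = 0.0152) and was higher in SNU449-Axl- among Rego-resistant cells (1.07 ± 0.224, limma, adjusted p = 0.00971). Its effects differed between backgrounds (-1.77 ± 0.316, limma, adjusted p = 0.00246). AKR1C1's call in SNU449-Axl- was lost without SNU449-Axl- control 2 or 3 or SNU449-Axl- Rego 1 or 2 (limma, adjusted p up to 0.141, log2 0.95 to 1.72). AKR1C1's call between Rego-resistant lines was lost without SNU449 Rego 1 or SNU449-Axl- Rego 1 or 2 (limma, adjusted p up to 0.147, log2 0.92 to 1.68). AKR1C2's call in SNU449 was lost without SNU449 control 1 or 3, SNU449 Rego 1, 2 or 3, SNU449-Axl- control 2 or SNU449-Axl- Rego 1 (limma, adjusted p up to 0.213, log2 -1.0 to -0.59), and with spike-in centring and in its pair table (limma, adjusted p = 0.0662 and 0.115). AKR1C2's call in SNU449-Axl- was lost without SNU449-Axl- control 2 or 3 or SNU449-Axl- Rego 1 or 2 (limma, adjusted p up to 0.162, log2 0.77 to 1.23). AKR1C2's call between Rego-resistant lines was lost without SNU449 Rego 1 or SNU449-Axl- Rego 1 or 2 (limma, adjusted p up to 0.11, log2 0.84 to 1.31). AKR1C2, uncalled between control lines (-0.70, adjusted p = 0.064), passed without the block and without SNU449 control 2 (limma, adjusted p down to 0.0281).

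AKR1B1, aldose reductase, which turns glucose into sorbitol, fell with Rego resistance in SNU449-Axl-, where its neighbour AKR1B10 rose. AKR1B1 (ENSG00000085662.14) scored 333, 345 and 572 in control SNU449 and 531, 481 and 373 in Rego-resistant SNU449. In SNU449-Axl-, AKR1B1 scored 862, 760 and 811 in control and 442, 534 and 389 in resistant cells. Control SNU449-Axl- libraries lay above those of every other group. AKR1B1 was higher in control SNU449-Axl- than in control SNU449 (1.0 ± 0.225, limma, adjusted p = 0.00947) and fell with Rego resistance in SNU449-Axl- (-0.84 ± 0.225, limma, adjusted p = 0.0395). In SNU449 its libraries overlapped (0.18 ± 0.225, limma, adjusted p = 0.712). Its difference between backgrounds, 1.02 ± 0.318, limma, adjusted p = 0.0684, was not called. AKR1B1's call in SNU449-Axl- was lost without SNU449 Rego 2, SNU449-Axl- control 1, 2 or 3 or SNU449-Axl- Rego 1, 2 or 3 (limma, adjusted p up to 0.19, log2 -1.0 to -0.70), and with spike-in centring (limma, adjusted p = 0.0841). AKR1B1's call between control lines was lost without SNU449 control 1 or 2 (limma, adjusted p up to 0.0764, log2 0.82 to 1.34). AKR1B1, uncalled between backgrounds, passed without the block and without SNU449 control 3 or SNU449 Rego 3 (limma, adjusted p down to 0.00598).

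Of the 7 detoxification enzymes for quinones, carbonyls, epoxides and aldehydes, 3 fell with Rego resistance in SNU449 (42.9%, against 7.81% of all genes called) and 1 rose in SNU449-Axl- (14.3%, against 4.35%). The 3 that fell all lost their calls with spike-in centring and in the pair table. They also all lost them without SNU449 control 1, 2 or 3, SNU449 Rego 1 or 2 or SNU449-Axl- Rego 1. ALDH3A2, a fatty aldehyde dehydrogenase, was the one that rose. ALDH3A2 (ENSG00000072210.19) scored 698, 654 and 581 in control SNU449 and 914, 957 and 923 in Rego-resistant SNU449. In SNU449-Axl-, ALDH3A2 scored 592, 540 and 589 in control and 1221, 1363 and 1460 in resistant cells. Its Rego-resistant SNU449-Axl- libraries were the highest of all 4 groups. ALDH3A2 rose in SNU449-Axl- (1.23 ± 0.173, limma, adjusted p = 0.000374), under every alternative tried. Its difference in SNU449 was also positive but not called (0.53 ± 0.173, limma, adjusted p = 0.0681), and the difference between backgrounds was not called (-0.69 ± 0.245, limma, adjusted p = 0.108). ALDH3A2, uncalled between Rego-resistant lines (0.53, adjusted p = 0.0948), passed without the block, with spike-in centring and in its pair table (limma, adjusted p down to 0.0139).

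EPHX1, microsomal epoxide hydrolase, opens reactive epoxides to diols. EPHX1 (ENSG00000143819.13) scored 231, 203 and 192 in control SNU449 and 97, 88 and 170 in Rego-resistant SNU449. In SNU449-Axl-, EPHX1 scored 120, 110 and 81 in control and 159, 217 and 163 in resistant cells. All control SNU449 libraries lay above those of Rego-resistant SNU449 and control SNU449-Axl-. EPHX1 fell with Rego resistance in SNU449 (-0.87 ± 0.245, limma, adjusted p = 0.0349) and was lower in control SNU449-Axl- (-1.02 ± 0.245, limma, adjusted p = 0.015). Its difference between backgrounds was -1.66 ± 0.347, limma, adjusted p = 0.00754. UGDH makes the UDP-glucuronate used to conjugate drugs and hormones. UGDH (ENSG00000109814.12) scored 2547, 2232 and 2098 in control SNU449 and 1504, 1248 and 1618 in Rego-resistant SNU449. In SNU449-Axl-, UGDH scored 1514, 1487 and 1773 in control and 2284, 3197 and 2201 in resistant cells. Its groups did not overlap within either background. UGDH fell in SNU449 (-0.66 ± 0.197, limma, adjusted p = 0.0477), and among Rego-resistant cells it was higher in SNU449-Axl- (0.80 ± 0.197, limma, adjusted p = 0.0255). Its effects differed between backgrounds (-1.33 ± 0.279, limma, adjusted p = 0.00791). EPHX1's call in SNU449 was lost without SNU449 control 1, 2 or 3, SNU449 Rego 1 or 2 or SNU449-Axl- Rego 1 (limma, adjusted p up to 0.216, log2 -1.26 to -0.63), and with spike-in centring and in its pair table (limma, adjusted p = 0.0612 and 0.0882). EPHX1's call between control lines was lost without SNU449 control 1 or 2 or SNU449-Axl- control 2 or 3 (limma, adjusted p up to 0.104, log2 -1.17 to -0.79). EPHX1, uncalled in SNU449-Axl- (0.79, adjusted p = 0.076), passed without the block, with spike-in centring, in its pair table and without SNU449 Rego 3 (limma, adjusted p down to 0.0229). EPHX1, uncalled between Rego-resistant lines (0.65, adjusted p = 0.155), passed with spike-in centring and without SNU449 Rego 3 (limma, adjusted p down to 0.0163). UGDH's call in SNU449 was kept without SNU449-Axl- control 1 or 3 or SNU449-Axl- Rego 2 and lost without each of the other 9 libraries (limma, adjusted p up to 0.24, log2 -0.76 to -0.51), and with spike-in centring and in its pair table (limma, adjusted p = 0.0918 and 0.12). UGDH's call between Rego-resistant lines was lost without SNU449 Rego 1 or 2 or SNU449-Axl- Rego 1 or 2 (limma, adjusted p up to 0.209, log2 0.57 to 0.93). UGDH, uncalled in SNU449-Axl- (0.67, adjusted p = 0.0612), passed without the block, with spike-in centring and without SNU449 control 3 (limma, adjusted p down to 0.0187).

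CBR1 reduces carbonyl compounds and quinones with NADPH. CBR1 (ENSG00000159228.13) scored 708, 826 and 742 in control SNU449 and 531, 466 and 491 in Rego-resistant SNU449. In SNU449-Axl-, CBR1 scored 680, 570 and 614 in control and 674, 784 and 769 in resistant cells. Rego-resistant SNU449 libraries were the lowest of the 4 groups. CBR1 fell in SNU449 (-0.61 ± 0.176, limma, adjusted p = 0.0387) and its effects differed between backgrounds (-0.87 ± 0.248, limma, adjusted p = 0.0453). NQO1, a quinone reductase often used as a readout of NRF2, was called in 1 of the 5 comparisons, that of the control lines. NQO1 (ENSG00000181019.13) scored 5591, 5328 and 7078 in control SNU449 and 4088, 4710 and 3974 in Rego-resistant SNU449. In SNU449-Axl-, NQO1 scored 4346, 2371 and 3670 in control and 3363, 5614 and 3235 in resistant cells. All control SNU449-Axl- libraries lay below the control SNU449 ones. NQO1 was lower in control SNU449-Axl- (-0.83 ± 0.247, limma, adjusted p = 0.0492). Its Rego differences were -0.49 in SNU449 (limma, adjusted p = 0.27) and 0.23 in SNU449-Axl- (limma, adjusted p = 0.678). CBR1's call in SNU449 was kept without SNU449-Axl- control 1 or 3 or SNU449-Axl- Rego 2 and lost without each of the other 9 libraries (limma, adjusted p up to 0.181, log2 -0.68 to -0.53), and with spike-in centring and in its pair table (limma, adjusted p = 0.133 and 0.118). CBR1's call between backgrounds was kept without SNU449-Axl- control 1 and lost without each of the other 11 libraries (limma, adjusted p up to 0.148, log2 -0.96 to -0.78), and with spike-in centring (limma, adjusted p = 0.0704). CBR1, uncalled between Rego-resistant lines (0.58, adjusted p = 0.0709), passed without the block, with spike-in centring and in its pair table (limma, adjusted p down to 0.0112). NQO1's call between control lines was kept without SNU449 Rego 3, SNU449-Axl- control 1 or SNU449-Axl- Rego 2 and lost without each of the other 9 libraries (limma, adjusted p up to 0.343, log2 -1.07 to -0.49), and with spike-in centring and in its pair table (limma, adjusted p = 0.115 and 0.0968) and above a mean normalized count of 50. The carbonyl reductase CBR3 and the aldehyde dehydrogenase ALDH3A1 were not called in any comparison. CBR3 scored from 100 to 188 over the 12 libraries and ALDH3A1, with a mean normalized count of 5.31, from 20 to 41. ALDH3A1, uncalled between control lines (0.57, adjusted p = 0.0999), passed without the block, with spike-in centring and without SNU449-Axl- control 3 (limma, adjusted p down to 0.0344).

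**Figure D3:**
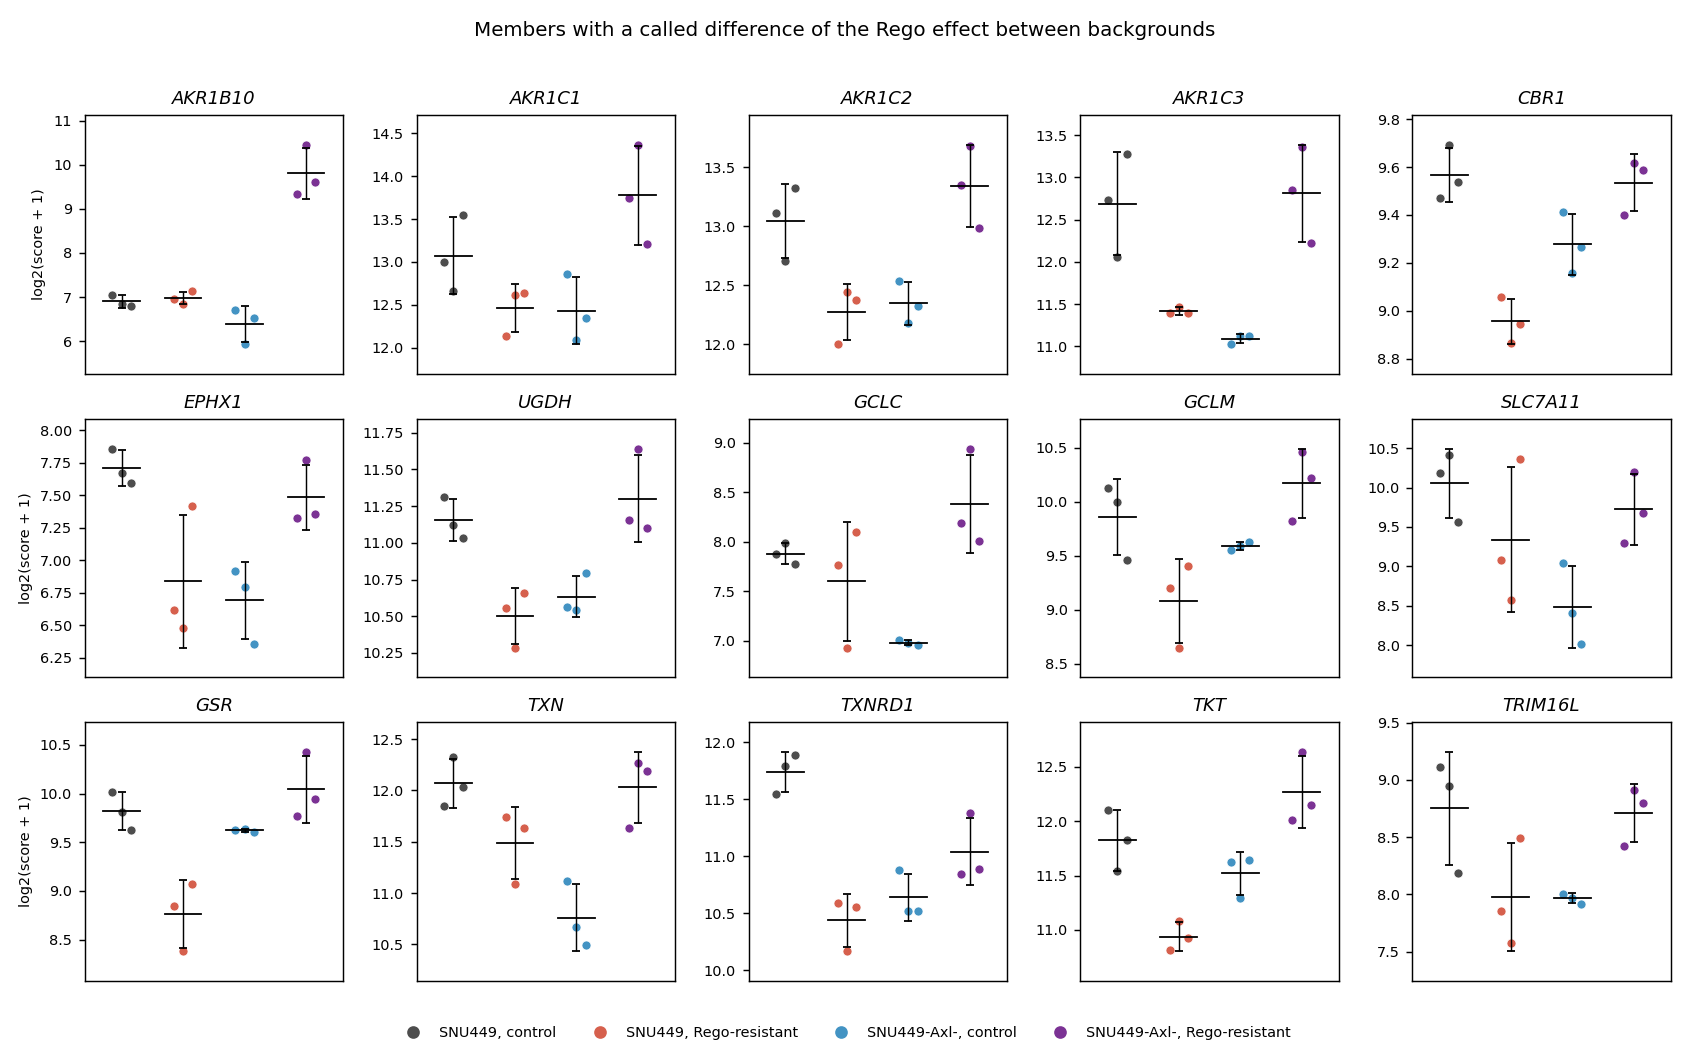
Log2(score + 1) of the 15 members with a called difference of the Rego effect between backgrounds, 1 panel per gene with its own vertical range. Points are libraries (3 per group), horizontal lines group means and whiskers 1 SD; in AKR1B10 the 3 Rego-resistant SNU449-Axl- libraries (650, 1395 and 785) stand above the other 9.

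HMOX1, which degrades haem, rose where most called members fell. HMOX1 (ENSG00000100292.18) scored 113, 99 and 73 in control SNU449 and 161, 145 and 245 in Rego-resistant SNU449. In SNU449-Axl-, HMOX1 scored 260, 207 and 216 in control and 225, 355 and 275 in resistant cells. Control SNU449 libraries were the lowest of all groups. HMOX1 rose with Rego resistance in SNU449 (0.93 ± 0.241, limma, adjusted p = 0.0219) and was higher in control SNU449-Axl- than in control SNU449 (1.27 ± 0.241, limma, adjusted p = 0.00298). In SNU449-Axl- the Rego difference was 0.30 ± 0.241, limma, adjusted p = 0.544, with overlapping libraries. HMOX1's call in SNU449 was lost without SNU449 control 2 or 3 or SNU449 Rego 3 (limma, adjusted p up to 0.172, log2 0.63 to 1.13), and in its pair table (limma, adjusted p = 0.0853). HMOX1, uncalled between Rego-resistant lines (0.64, adjusted p = 0.148), passed with spike-in centring and without SNU449 Rego 3 (limma, adjusted p down to 0.0205). The ferritin subunits FTH1 and FTL, which store iron, were not called in any comparison, with differences from -0.29 to 0.06 for FTH1 and from -0.4 to 0.14 for FTL. FTL varied widely between libraries of 1 group, from 13175 to 33921 in Rego-resistant SNU449-Axl-. Of the 50-base words at their 3′ ends, 14.2% (FTH1) and 7.41% (FTL) also occurred in another gene, FTH1P10 and FTLP3, so both are uncertain to that extent.

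Among the 5 measured glutathione genes, 4 had a called difference between backgrounds (80%, against 5.87% of all genes). Without SNU449-Axl- Rego 2, only GSR of these 4 kept the call. GSR, glutathione reductase, returns oxidized glutathione to its reduced form. GSR (ENSG00000104687.14) scored 1035, 896 and 791 in control SNU449 and 458, 333 and 537 in Rego-resistant SNU449. In SNU449-Axl-, GSR scored 791, 792 and 779 in control and 869, 1376 and 983 in resistant cells. Rego-resistant SNU449 libraries lay below those of every other group. GSR fell with Rego resistance in SNU449 (-1.05 ± 0.218, limma, adjusted p = 0.00493) and was higher in SNU449-Axl- among Rego-resistant cells (1.28 ± 0.218, limma, adjusted p = 0.002). The difference between backgrounds was -1.47 ± 0.308, limma, adjusted p = 0.00754. GCLC is the catalytic subunit of the enzyme that starts glutathione synthesis. GCLC (ENSG00000001084.13) scored 233, 253 and 218 in control SNU449 and 217, 121 and 273 in Rego-resistant SNU449. In SNU449-Axl-, GCLC scored 128, 125 and 123 in control and 291, 490 and 256 in resistant cells. Its Rego-resistant SNU449-Axl- libraries lay above all control SNU449-Axl- libraries, while Rego-resistant SNU449 overlapped control SNU449. GCLC rose in SNU449-Axl- (1.40 ± 0.272, limma, adjusted p = 0.00577) and was not called in SNU449 (-0.28 ± 0.272, limma, adjusted p = 0.612), and the effects differed (-1.68 ± 0.384, limma, adjusted p = 0.0133). GSR's call in SNU449 was lost without SNU449 Rego 2 (limma, adjusted p up to 0.0561, log2 -1.26 to -0.80). GCLC's call in SNU449-Axl- was lost without SNU449-Axl- Rego 2 (limma, adjusted p up to 0.0787, log2 1.02 to 1.65). GCLC's call between backgrounds was lost without SNU449-Axl- Rego 2 (limma, adjusted p up to 0.0557, log2 -2.01 to -1.23). GCLC, uncalled between control lines (-0.90, adjusted p = 0.0516), passed without the block, with upper-quartile scaling, in its pair table and without SNU449 Rego 2 or 3 or SNU449-Axl- Rego 2 or 3 (limma, adjusted p down to 0.0142). GCLC, uncalled between Rego-resistant lines (0.78, adjusted p = 0.119), passed with spike-in centring and without SNU449 Rego 3 (limma, adjusted p down to 0.0124).

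GCLM is the modifier subunit of the same enzyme, and its promoter window holds the core shown in capitals. GCLM (ENSG00000023909.10) scored 1118, 1023 and 703 in control SNU449 and 589, 401 and 676 in Rego-resistant SNU449. In SNU449-Axl-, GCLM scored 751, 772 and 789 in control and 906, 1414 and 1194 in resistant cells. The groups did not overlap within either background. GCLM fell with Rego resistance in SNU449 (-0.78 ± 0.235, limma, adjusted p = 0.0498), and among Rego-resistant cells it was higher in SNU449-Axl- (1.09 ± 0.235, limma, adjusted p = 0.0121). Its difference between backgrounds was -1.36 ± 0.332, limma, adjusted p = 0.0196. SLC7A11 brings in the cystine from which glutathione is made. SLC7A11 (ENSG00000151012.13) scored 1158, 1368 and 753 in control SNU449 and 541, 380 and 1311 in Rego-resistant SNU449. In SNU449-Axl-, SLC7A11 scored 526, 339 and 257 in control and 627, 1173 and 815 in resistant cells. SNU449 Rego 3, at 1311, stood above the other 2 libraries of its group. SLC7A11 was lower in control SNU449-Axl- than in control SNU449 (-1.56 ± 0.372, limma, adjusted p = 0.014), and its Rego effects differed between backgrounds (-1.95 ± 0.526, limma, adjusted p = 0.0339). Neither Rego effect was called alone (-0.71 and 1.23, limma, adjusted p = 0.285 and 0.0677). SLC7A11, uncalled in SNU449, passed without SNU449 Rego 3 (limma, adjusted p = 0.00851). SLC7A11, uncalled in SNU449-Axl-, passed without the block, with spike-in centring, in its pair table and without SNU449 control 3, SNU449 Rego 2 or 3 or SNU449-Axl- control 1 (limma, adjusted p down to 0.00876). GCLM's call in SNU449 was kept without SNU449 control 3, SNU449 Rego 3 or SNU449-Axl- control 1 and lost without each of the other 9 libraries (limma, adjusted p up to 0.31, log2 -1.04 to -0.49), and with spike-in centring and in its pair table (limma, adjusted p = 0.0835 and 0.125) and above a mean normalized count of 50. GCLM's call between Rego-resistant lines was lost without SNU449 Rego 2 or SNU449-Axl- Rego 2 or 3 (limma, adjusted p up to 0.118, log2 0.80 to 1.32). GCLM's call between backgrounds was lost without SNU449 control 1 or 2, SNU449 Rego 2, SNU449-Axl- control 2 or SNU449-Axl- Rego 2 or 3 (limma, adjusted p up to 0.0827, log2 -1.62 to -1.07). SLC7A11's call between control lines was lost without SNU449 control 1 or 2 or SNU449-Axl- control 2 or 3 (limma, adjusted p up to 0.105, log2 -1.93 to -1.25). SLC7A11's call between backgrounds was kept without SNU449 control 3, SNU449 Rego 3, SNU449-Axl- control 1 or SNU449-Axl- Rego 1 and lost without each of the other 8 libraries (limma, adjusted p up to 0.135, log2 -2.63 to -1.44). SLC7A11's value between backgrounds was -2.63 without SNU449 Rego 3.

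GPX4, which reduces lipid hydroperoxides and protects cells from ferroptosis, rose with Rego resistance in SNU449, where GSR and GCLM fell. GPX4 (ENSG00000167468.19) scored 204, 208 and 268 in control SNU449 and 594, 549 and 656 in Rego-resistant SNU449. In SNU449-Axl-, GPX4 scored 611, 458 and 334 in control and 596, 845 and 751 in resistant cells. Control SNU449 libraries, at 204 to 268, were below all libraries of the other groups. GPX4 rose with Rego resistance in SNU449 (1.41 ± 0.225, limma, adjusted p = 0.000599) and was higher in control SNU449-Axl- than in control SNU449 (1.01 ± 0.225, limma, adjusted p = 0.00913). In SNU449-Axl- the Rego difference was 0.67 ± 0.225, limma, adjusted p = 0.102, and the difference between backgrounds was not called (0.74 ± 0.319, limma, adjusted p = 0.201). GPX4's call between control lines was lost without SNU449 control 1 or 2 or SNU449-Axl- control 1 or 2 (limma, adjusted p up to 0.0706, log2 0.72 to 1.30), and in its pair table (limma, adjusted p = 0.0568). GPX4, uncalled in SNU449-Axl-, passed without the block and without SNU449-Axl- control 1 (limma, adjusted p down to 0.0241). GPX4, uncalled between backgrounds, passed without SNU449-Axl- control 3 (limma, adjusted p = 0.0469).

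Thioredoxin and its reductase pass electrons from NADPH to protein disulfides. TXNRD1, the cytosolic thioredoxin reductase, had the most negative difference of the set in SNU449. TXNRD1 (ENSG00000198431.17) scored 2980, 3536 and 3774 in control SNU449 and 1537, 1149 and 1505 in Rego-resistant SNU449. In SNU449-Axl-, TXNRD1 scored 1875, 1465 and 1468 in control and 1840, 2654 and 1894 in resistant cells. Control SNU449 libraries lay above those of every other group. TXNRD1 fell in SNU449 (-1.30 ± 0.206, limma, adjusted p = 0.000549) and was lower in control SNU449-Axl- (-1.10 ± 0.206, limma, adjusted p = 0.00272). Its difference between backgrounds was -1.70 ± 0.291, limma, adjusted p = 0.0017. These 3 calls were kept under every alternative tried. TXNRD1, uncalled between Rego-resistant lines (0.60, adjusted p = 0.114), passed without the block and with spike-in centring (limma, adjusted p down to 0.0143). TXN is thioredoxin itself. TXN (ENSG00000136810.13) scored 3688, 5131 and 4196 in control SNU449 and 3423, 2169 and 3178 in Rego-resistant SNU449. In SNU449-Axl-, TXN scored 2226, 1627 and 1437 in control and 3181, 4937 and 4665 in resistant cells. All control SNU449-Axl- libraries lay below those of control SNU449 and of Rego-resistant SNU449-Axl-. TXN was lower in control SNU449-Axl- than in control SNU449 (-1.31 ± 0.238, limma, adjusted p = 0.00215) and rose with Rego resistance in SNU449-Axl- (1.27 ± 0.238, limma, adjusted p = 0.00429). In SNU449 its difference was -0.58 ± 0.238, limma, adjusted p = 0.157, not called, and the effects differed (-1.85 ± 0.337, limma, adjusted p = 0.00272). TXN's call in SNU449-Axl- was lost without SNU449-Axl- Rego 2 (limma, adjusted p up to 0.0588, log2 1.09 to 1.53). TXN, uncalled between Rego-resistant lines (0.54, adjusted p = 0.226), passed with spike-in centring (limma, adjusted p = 0.0414). The peroxiredoxin PRDX1 scored from 7270 to 14610 and was not called, with a difference between backgrounds of -0.73 ± 0.299, limma, adjusted p = 0.174. PRDX1, uncalled between Rego-resistant lines (0.67, adjusted p = 0.0842), passed without the block, with spike-in centring, in its pair table and without SNU449-Axl- control 1 (limma, adjusted p down to 0.0129). PRDX1, uncalled between backgrounds, passed without SNU449-Axl- control 1 (limma, adjusted p = 0.0314).

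Of the 4 members of the pentose phosphate pathway and malic enzyme that supply or support NADPH, TKT was the one called, in 3 of the 5 comparisons (25% of the 4 in each, against 7.81% of all genes for Rego in SNU449, 4.37% between the Rego-resistant lines and 5.87% between backgrounds). TKT (ENSG00000163931.17) scored 4392, 2972 and 3635 in control SNU449 and 1802, 2164 and 1940 in Rego-resistant SNU449. In SNU449-Axl-, TKT scored 3150, 2508 and 3197 in control and 4116, 6360 and 4550 in resistant cells. Rego-resistant SNU449 libraries were the lowest of the 4 groups, and Rego-resistant SNU449-Axl- overlapped control SNU449. TKT fell in SNU449 (-0.88 ± 0.211, limma, adjusted p = 0.0136), and among Rego-resistant cells it was higher in SNU449-Axl- (1.33 ± 0.211, limma, adjusted p = 0.0011). The difference between backgrounds was -1.63 ± 0.299, limma, adjusted p = 0.00299. TKT's call in SNU449 was lost without SNU449 control 1 or SNU449 Rego 1 or 3 (limma, adjusted p up to 0.0889, log2 -1.07 to -0.70), and in its pair table (limma, adjusted p = 0.0649). TKT, uncalled in SNU449-Axl- (0.75, adjusted p = 0.0524), passed without the block, with spike-in centring and without SNU449 control 1 or 3 (limma, adjusted p down to 0.0187). PGD, TALDO1 and ME1 scored 459 to 860, 891 to 1678 and 340 to 703 and were not called, with differences between backgrounds of -0.83, -0.67 and -0.10 (limma, adjusted p = 0.136, 0.154 and 0.918). PGD, uncalled between backgrounds, passed without SNU449 Rego 3 or SNU449-Axl- control 1 (limma, adjusted p down to 0.0421). Catalase (CAT, 137 to 387) and superoxide dismutase SOD1 (2378 to 3908) were not called either. The Rego differences of CAT were negative in both backgrounds (-0.67 and -0.48, limma, adjusted p = 0.0864 and 0.269). SOD1, uncalled between Rego-resistant lines (0.39, adjusted p = 0.264), passed with spike-in centring (limma, adjusted p = 0.0428).

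Of the 7 regulators of the pathway, KEAP1 and SQSTM1 were each called in 1 comparison (14.3% of the 7, against 7.45% of all genes between the control lines and 4.37% between the Rego-resistant lines). None passed in either Rego comparison or in the difference between backgrounds (limma), while 2, 4 and 5 of the 7 had an unadjusted p under 0.05. Of all 15601 genes, 3316, 2894 and 3032 had such a p in the same order. NFE2L2 encodes NRF2. NFE2L2 (ENSG00000116044.16) scored 974, 686 and 907 in control SNU449 and 713, 786 and 537 in Rego-resistant SNU449. In SNU449-Axl-, NFE2L2 scored 551, 570 and 816 in control and 927, 1154 and 895 in resistant cells. Within SNU449 the libraries overlapped, and within SNU449-Axl- every Rego-resistant library lay above the control ones. The Rego differences of NFE2L2 were -0.34 ± 0.22, limma, adjusted p = 0.409 in SNU449 and 0.63 ± 0.22, limma, adjusted p = 0.114 in SNU449-Axl-. Its difference between backgrounds was -0.97 ± 0.311, limma, adjusted p = 0.0759, not called. Between the Rego-resistant lines NFE2L2 differed by 0.56 ± 0.22, limma, adjusted p = 0.177. NFE2L2, uncalled in SNU449-Axl-, passed with spike-in centring and without SNU449-Axl- control 3 (limma, adjusted p down to 0.0396). NFE2L2, uncalled between Rego-resistant lines, passed with spike-in centring and in its pair table (limma, adjusted p down to 0.0138). NFE2L2, uncalled between backgrounds, passed without the block, with spike-in centring and without SNU449 control 2 or SNU449-Axl- control 3 (limma, adjusted p down to 0.0252).

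KEAP1, the adaptor that targets NRF2 for degradation, rose with loss of Axl in control cells. KEAP1 (ENSG00000079999.14) scored 129, 135 and 118 in control SNU449 and 149, 113 and 175 in Rego-resistant SNU449. In SNU449-Axl-, KEAP1 scored 242, 231 and 187 in control and 126, 166 and 152 in resistant cells. Control SNU449-Axl- libraries were the highest of the 4 groups. The rise was 0.78 ± 0.207, limma, adjusted p = 0.0272. The Rego differences were 0.17 in SNU449 and -0.57 in SNU449-Axl- (limma, adjusted p = 0.694 and 0.133). BACH1 represses antioxidant response elements. BACH1 (ENSG00000156273.16) scored 126, 106 and 111 in control SNU449 and 87, 71 and 97 in Rego-resistant SNU449. In SNU449-Axl-, BACH1 scored 86, 89 and 84 in control and 94, 134 and 99 in resistant cells. In both backgrounds the control and Rego-resistant libraries did not overlap, but the differences, -0.43 and 0.32, were not called (limma, adjusted p = 0.223 and 0.433). KEAP1's call between control lines was lost without SNU449 control 1, 2 or 3 or SNU449-Axl- control 1 or 2 (limma, adjusted p up to 0.129, log2 0.68 to 0.93), and in its pair table (limma, adjusted p = 0.0519).

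SQSTM1 (p62) is an autophagy adaptor that binds KEAP1 and is itself an NRF2 target. SQSTM1 (ENSG00000161011.20) scored 6170, 5810 and 4218 in control SNU449 and 3348, 3183 and 5981 in Rego-resistant SNU449. In SNU449-Axl-, SQSTM1 scored 6429, 3743 and 4341 in control and 6265, 12017 and 7597 in resistant cells. Every Rego-resistant SNU449-Axl- library lay above every Rego-resistant SNU449 library, with SNU449-Axl- Rego 2, at 12017, the highest. SQSTM1 was higher in SNU449-Axl- among Rego-resistant cells (1.06 ± 0.285, limma, adjusted p = 0.0418). SQSTM1's call between Rego-resistant lines was lost without SNU449 control 2, SNU449 Rego 1 or 2, SNU449-Axl- control 2 or 3 or SNU449-Axl- Rego 2 or 3 (limma, adjusted p up to 0.306, log2 0.70 to 1.44), and above a mean normalized count of 50. SQSTM1, uncalled in SNU449-Axl- (0.82, adjusted p = 0.116), passed without SNU449-Axl- control 1 (limma, adjusted p = 0.0429). SQSTM1, uncalled between backgrounds (-1.23, adjusted p = 0.0819), passed without SNU449 control 3, SNU449 Rego 3 or SNU449-Axl- control 1 (limma, adjusted p down to 0.0155). The related factor NFE2L1 (335 to 787) and the partners MAFG (448 to 1147) and MAFF (50 to 125) were not called, with Rego differences of 0.53, 0.07 and -0.32 in SNU449 and 0.40, 0.43 and 0.67 in SNU449-Axl-. MAFG, uncalled between Rego-resistant lines (0.52, adjusted p = 0.249), passed with spike-in centring and without SNU449 Rego 3 (limma, adjusted p down to 0.037). MAFF, uncalled between Rego-resistant lines (0.52, adjusted p = 0.246), passed with spike-in centring (limma, adjusted p = 0.0388). MAFF, uncalled between backgrounds (-0.99, adjusted p = 0.088), passed without the block and without SNU449-Axl- Rego 3 (limma, adjusted p down to 0.0392).

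**Figure D4:**
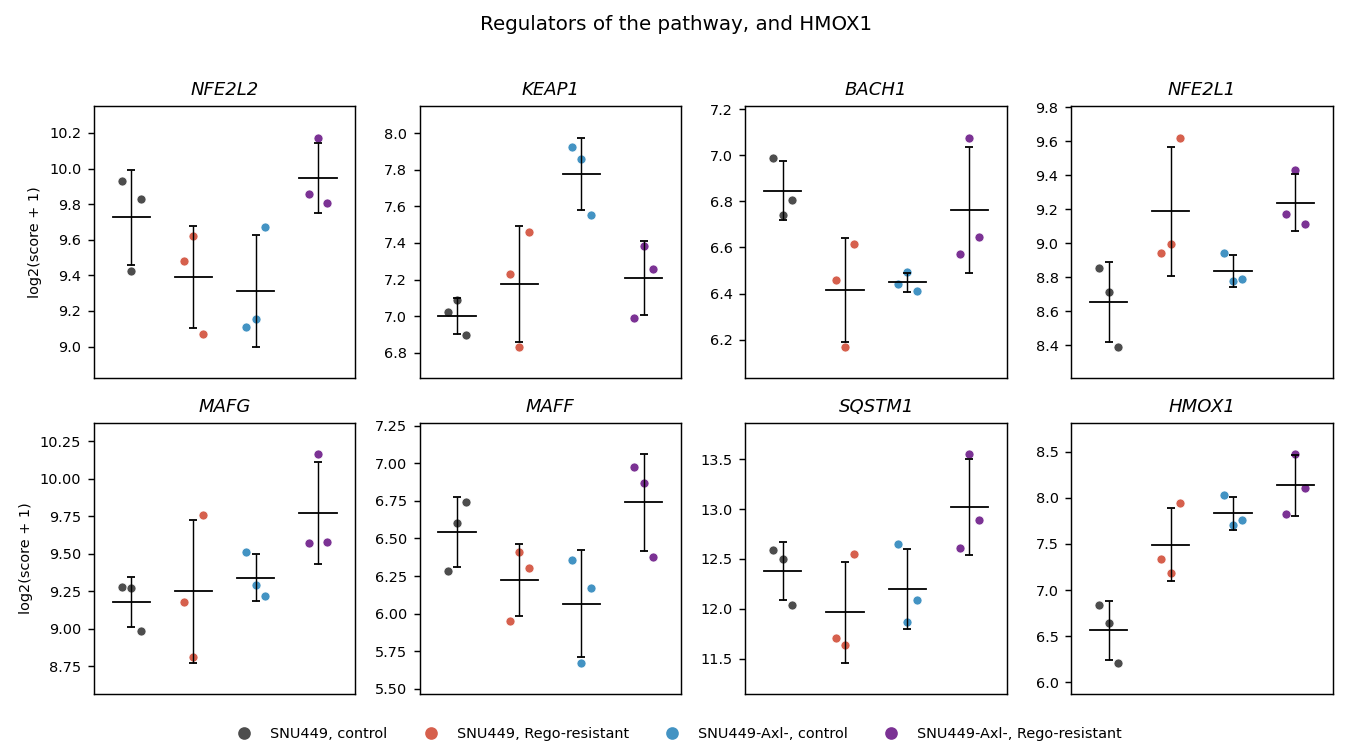
Log2(score + 1) of the 7 regulators and HMOX1, 1 panel per gene with its own vertical range; points are libraries (3 per group), lines group means and whiskers 1 SD. KEAP1 is highest in control SNU449-Axl- (242, 231 and 187) and HMOX1 lowest in control SNU449 (113, 99 and 73).

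Of the remaining targets, TRIM16L had a called difference between backgrounds and the stress-response gene OSGIN1 did not. TRIM16L (ENSG00000108448.23) scored 554, 493 and 291 in control SNU449 and 231, 190 and 360 in Rego-resistant SNU449. In SNU449-Axl-, TRIM16L scored 256, 250 and 241 in control and 342, 480 and 444 in resistant cells. SNU449 control 3, at 291, overlapped the Rego-resistant SNU449 libraries. Its difference between backgrounds was -1.52 ± 0.365, limma, adjusted p = 0.0178. TRIM16L's call between backgrounds was lost without SNU449 control 1 or 2, SNU449 Rego 1 or 2, SNU449-Axl- control 2 or SNU449-Axl- Rego 2 or 3 (limma, adjusted p up to 0.0732, log2 -1.89 to -1.25). TRIM16L, uncalled in SNU449 (-0.77, adjusted p = 0.0768), passed without the block and without SNU449 control 3 or SNU449 Rego 3 (limma, adjusted p down to 0.0069). TRIM16L, uncalled in SNU449-Axl- (0.74, adjusted p = 0.114), passed in its pair table and without SNU449 control 3 (limma, adjusted p down to 0.0433). TRIM16L, uncalled between control lines (-0.79, adjusted p = 0.0734), passed without the block and without SNU449 control 3 or SNU449 Rego 3 (limma, adjusted p down to 0.00692). TRIM16L, uncalled between Rego-resistant lines (0.73, adjusted p = 0.124), passed with spike-in centring, in its pair table and without SNU449 control 3 or SNU449 Rego 3 (limma, adjusted p down to 0.0169). TRIM16L shared 38.5% of its 3′-end words with TRIM16 and is uncertain to that extent. OSGIN1 scored from 55 to 177, with a difference between backgrounds of -1.26 ± 0.432, limma, adjusted p = 0.0966. OSGIN1, uncalled in SNU449-Axl- (0.85, adjusted p = 0.13), passed in its pair table and without SNU449 Rego 3 (limma, adjusted p down to 0.0302). OSGIN1, uncalled between control lines (-0.85, adjusted p = 0.1), passed in its pair table and without SNU449 Rego 2 or 3 (limma, adjusted p down to 0.032). OSGIN1, uncalled between backgrounds, passed without SNU449 Rego 3 (limma, adjusted p = 0.0081).

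Other genes of the pathway were counted from a list of 61, of which 57 were measured. In SNU449 with Rego resistance, 9 were called (15.8%, against 7.81% of all genes), 4 higher and 5 lower. The long noncoding RNA LUCAT1 (-1.75), the reductase PTGR1 (-1.13) and pirin, PIR (-1.0) fell most. The peptidase DPP9 (1.09), the exporter ABCC3 (0.87) and the haem transporter SLC48A1 (0.87) rose most. In SNU449-Axl-, 9 were called (15.8%, against 4.35% of all genes), 7 higher and 2 lower. Extracellular superoxide dismutase SOD3 (1.78), PTGR1 (1.51) and biliverdin reductase BLVRB (1.21) rose most, while PRDX2 (-1.02) and DPP9 (-0.79) fell. SOD3's value in SNU449-Axl- was 1.18 in its pair table. PTGR1's call in SNU449 was lost without SNU449 control 2 or SNU449 Rego 1 (limma, adjusted p up to 0.0672, log2 -1.33 to -0.96). ABCC3's call in SNU449 was lost without SNU449 control 2 or SNU449 Rego 2 or 3 (limma, adjusted p up to 0.219, log2 0.63 to 1.04), and in its pair table (limma, adjusted p = 0.0688). SLC48A1's call in SNU449 was lost without SNU449 control 2 or 3 or SNU449 Rego 2 or 3 (limma, adjusted p up to 0.179, log2 0.65 to 1.13), and in its pair table (limma, adjusted p = 0.0885). BLVRB's call in SNU449-Axl- was lost without SNU449-Axl- control 2 or 3 or SNU449-Axl- Rego 2 (limma, adjusted p up to 0.0846, log2 1.01 to 1.57). PRDX2's call in SNU449-Axl- was lost without SNU449-Axl- control 1 or 2 or SNU449-Axl- Rego 2 or 3 (limma, adjusted p up to 0.104, log2 -1.24 to -0.89). DPP9's call in SNU449-Axl- was lost without SNU449-Axl- control 2 or 3 or SNU449-Axl- Rego 2 or 3 (limma, adjusted p up to 0.222, log2 -0.95 to -0.61), and with spike-in centring (limma, adjusted p = 0.118).

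Between the control lines, 9 of the 57 were called (15.8%, against 7.45% of all genes), 2 higher in SNU449-Axl- (DPP9, 1.23, and PRDX2, 1.22) and 7 lower. PTGR1 (-1.79), the exporter ABCC2 (-1.19) and TRIM16 (-1.17) were the lowest. Between the Rego-resistant lines 4 were called (7.02%, against 4.37% of all genes), all higher in SNU449-Axl-. LUCAT1 (1.75), PIR (1.19) and the exporter ABCG2 (0.99) were the highest of the 4. UGT1A1, PRDX4, ABCC4, SOD2, SOD3, ABCC2, SLC40A1, PTGR1, HTATIP2 and BLVRA also passed with spike-in centring, all higher. That centring called 1799 of all genes, against 682. SLC48A1 (-0.71) and DPP9 (-0.65), uncalled and lower in SNU449-Axl-, passed without the block and in the pair table (limma, adjusted p down to 0.0223). The difference between backgrounds was called for 11 (19.3%, against 5.87% of all genes), 9 negative and 2 positive. LUCAT1 (-2.68), PTGR1 (-2.63) and ABCC2 (-1.74) were the most negative, and DPP9 (1.87) and PRDX2 (1.78) were positive. ABCC2's call between control lines was lost without SNU449-Axl- control 2 (limma, adjusted p up to 0.0595, log2 -1.46 to -0.92). TRIM16's call between control lines was lost without SNU449 control 1 (limma, adjusted p up to 0.0715, log2 -1.52 to -0.80). ABCG2's call between Rego-resistant lines was lost without SNU449 Rego 3 or SNU449-Axl- Rego 1 or 3 (limma, adjusted p up to 0.0687, log2 0.83 to 1.10).

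LUCAT1, an RNA induced by stress, was called in all 5 comparisons. LUCAT1 (ENSG00000248323.8) scored 340, 326 and 268 in control SNU449 and 77, 101 and 99 in Rego-resistant SNU449. In SNU449-Axl-, LUCAT1 scored 144, 141 and 208 in control and 377, 307 and 258 in resistant cells. It fell with Rego resistance in SNU449 (limma, adjusted p = 4.82e-05) and rose in SNU449-Axl- (limma, adjusted p = 0.0185), and the 2 effects differed (limma, adjusted p = 3.82e-05). Every control SNU449 and every Rego-resistant SNU449-Axl- library lay above every library of the other 2 groups. Its difference was -0.93 between the control lines and 1.75 between the Rego-resistant lines (limma, adjusted p = 0.0119 and 9.18e-05). LUCAT1's call in SNU449-Axl- was lost without SNU449-Axl- control 1 or 2 or SNU449-Axl- Rego 1 or 2 (limma, adjusted p up to 0.145, log2 0.75 to 1.18). LUCAT1's call between control lines was lost without SNU449 control 1 or 2 or SNU449-Axl- control 1 or 2 (limma, adjusted p up to 0.0963, log2 -1.18 to -0.80), and in its pair table (limma, adjusted p = 0.055).

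Genes around the 2 aldo-keto reductase clusters were counted within 1 Mb of the members' starts. Around AKR1B1 and AKR1B10, 11 other genes were measured. Of all genes, 7.81%, 4.35%, 7.45%, 4.37% and 5.87% were called in the 5 comparisons, in the order used above. An unadjusted p under 0.05 was found for 3316, 2894, 3357, 2835 and 3032 of the 15601 genes in that order (limma). In SNU449 with Rego resistance CALD1 (1.5) and AGBL3 (0.66) rose, and none of the 11 was called in SNU449-Axl- (limma), where 1 had an unadjusted p under 0.05 and differences ran from -0.46 to 0.49. In control cells ENSG00000287733 was lower in SNU449-Axl- (-0.65), and in Rego-resistant cells CALD1 (-1.63) and BPGM (-0.7) were. None was called for the difference between backgrounds (limma, 4 at an unadjusted p under 0.05). Around AKR1C1 to AKR1C3, 13 other genes were measured. NET1 (-0.88) and IL15RA (-1.01) fell with Rego resistance in SNU449, and both were lower in control SNU449-Axl- (-0.82 and -0.94). None was called in the other 2 comparisons of groups (limma), with 2 at an unadjusted p under 0.05 for the Rego effect in SNU449-Axl- and 0 between the Rego-resistant lines. IL15RA had a called difference between backgrounds (-1.19).

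Markers of cell types were measured in the same libraries. Of 10 hepatocyte markers 3 were listed (APOA1, FGB and AFP), with a summed mean normalized count of 109 and FGB the most abundant. ALB, APOA2, APOB, TTR, HNF4A, SERPINA1 and TF were not listed. The summed hepatocyte scores were 92, 67 and 67 in control SNU449 and 85, 72 and 73 in Rego-resistant SNU449, and 98, 115 and 133 and 249, 606 and 354 in the corresponding SNU449-Axl- groups. FGB rose with Rego resistance in SNU449-Axl- (2.49 ± 0.382, limma, adjusted p = 0.000805), was higher in SNU449-Axl- among Rego-resistant cells (3.44 ± 0.382, limma, adjusted p = 2.9e-05), and its effects differed between backgrounds (-2.38 ± 0.54, limma, adjusted p = 0.0126). FGB's value in SNU449-Axl- was 1.71 in its pair table. FGB's value between Rego-resistant lines was 2.35 in its pair table. FGB's call between backgrounds was lost without SNU449-Axl- Rego 2 (limma, adjusted p up to 0.0537, log2 -2.86 to -1.84). AFP was higher in control SNU449-Axl- (0.67 ± 0.181, limma, adjusted p = 0.0297). AFP's call between control lines was lost without SNU449 control 1, 2 or 3 or SNU449-Axl- control 1, 2 or 3 (limma, adjusted p up to 0.113, log2 0.60 to 0.76), and in its pair table (limma, adjusted p = 0.0793). All 6 mesenchymal-like markers were listed, with a summed count of 22700 and VIM the most abundant. The summed mesenchymal-like scores were 23361, 27669 and 18839 in control SNU449 and 26315, 16869 and 30648 in Rego-resistant SNU449, and 19757, 27102 and 23127 and 20762, 21251 and 18589 in the corresponding SNU449-Axl- groups. FN1, fibronectin, fell with Rego resistance in SNU449 (-2.24 ± 0.365, limma, adjusted p = 0.000686) and rose in SNU449-Axl- (2.47 ± 0.365, limma, adjusted p = 0.000544), with a difference between backgrounds of -4.71 ± 0.516, limma, adjusted p = 3.44e-05. It was lower in SNU449-Axl- among control cells (-2.25 ± 0.365, limma, adjusted p = 0.000867) and higher there among Rego-resistant cells (2.46 ± 0.365, limma, adjusted p = 0.000489). FN1's values in SNU449-Axl-, between Rego-resistant lines and between backgrounds were 1.85, 1.85 and -4.09 without SNU449-Axl- Rego 2, and 3.08, 3.07 and -5.32 without SNU449-Axl- Rego 3. Of 4 epithelial markers KRT8 and KRT18 were listed (summed count 1360, KRT18 the most abundant), and CDH1 and EPCAM were not. The summed epithelial scores were 826, 1036 and 1321 in control SNU449 and 1527, 1291 and 905 in Rego-resistant SNU449, and 1135, 1383 and 1602 and 2134, 1576 and 1515 in the corresponding SNU449-Axl- groups. KRT8 was higher in SNU449-Axl- in control cells (0.79 ± 0.218, limma, adjusted p = 0.0332) and in Rego-resistant cells (1.58 ± 0.218, limma, adjusted p = 0.000248). KRT8's call between control lines was lost without SNU449 control 1 or 2 or SNU449-Axl- control 1, 2 or 3 (limma, adjusted p up to 0.181, log2 0.61 to 1.03), and in its pair table (limma, adjusted p = 0.0708). The fibroblast or stellate markers PDGFRB, LUM and COL1A1 were listed and DCN was not, with a summed count of 706 and COL1A1 the most abundant. The summed fibroblast or stellate scores were 472, 318 and 124 in control SNU449 and 748, 429 and 937 in Rego-resistant SNU449, and 556, 2170 and 2458 and 258, 201 and 330 in the corresponding SNU449-Axl- groups. COL1A1 fell with Rego resistance in SNU449-Axl- (-2.79 ± 0.61, limma, adjusted p = 0.0129), with a difference between backgrounds of 4.76 ± 0.862, limma, adjusted p = 0.00268. In control cells it was higher in SNU449-Axl- (3.14 ± 0.61, limma, adjusted p = 0.00361). COL1A1, uncalled in SNU449 (1.97), passed with spike-in centring and without SNU449 control 1, SNU449 Rego 2 or SNU449-Axl- control 1 (limma, adjusted p down to 0.00934). COL1A1, uncalled between Rego-resistant lines (-1.63), passed in its pair table and without SNU449 control 3 (limma, adjusted p down to 7.89e-05). COL1A1's call in SNU449-Axl- was lost without SNU449-Axl- control 2 or 3 or SNU449-Axl- Rego 1 or 2 (limma, adjusted p up to 0.122, log2 -3.75 to -2.26). COL1A1's value in SNU449-Axl- was -3.75 without SNU449-Axl- control 1. Its values between control lines and between backgrounds were 3.97 and 5.59 without SNU449 control 1, 1.95 and 3.58 without SNU449 control 3, and 4.10 and 5.72 without SNU449-Axl- control 1. LUM fell in SNU449 (-1.10 ± 0.176, limma, adjusted p = 0.000595) and differed between backgrounds (-0.97 ± 0.249, limma, adjusted p = 0.0259). LUM's call between backgrounds was kept without SNU449 control 3, SNU449 Rego 3 or SNU449-Axl- control 3 and lost without each of the other 9 libraries (limma, adjusted p up to 0.0871, log2 -1.11 to -0.89). Leukocyte markers were near 0 (2 of 4 listed, PTPRC and CD14, summed count 6.46), and the 3 endothelial markers PECAM1, VWF and CDH5 were not listed. The part of these changes in the members' differences was not tested.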

How the data were processed

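Transcript 3′ ends of 12 libraries, 3 for each of 4 groups, were sequenced (QuantSeq). Per the submitters' notes and the study's methods, reads were trimmed with cutadapt 4.0, aligned with STAR 2.5.3a to GRCh38 with GENCODE 40 and spike-in RNAs with up to 1000 hits and errors up to 5%, with counts per gene as STAR's output. Whether reads with several hits entered these counts is not stated. DESeq2 with preparation date as a term was run by the authors, who removed weakly expressed genes. The 8 deposited tables hold library values, whole numbers that were read here as scores: variance-stabilized values with the effect of preparation date removed, raised from the log2 scale and rounded. This reading rests on the values. The authors describe the stabilization and the removal for a heat map and gene sets, and not how the library values of the tables were made. The tables also hold the authors' mean normalized count as a signal, their log2 fold change with its error, and their p-value and adjusted p-value. The deposited log2 fold changes and p-values were not used. Read depth per library is unknown, and no count test or counting interval could be made. The summed mean normalized count was 4510000.

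Differences were computed here with limma 3.58.1 in R 4.3.3 on log2(score + 1) of the table over all 12 libraries (15633 features, 32 of them spike-ins, leaving 15601 genes). The model held the 4 groups and the replicate number as a block, with Benjamini-Hochberg adjustment over all genes. Pairing by number was checked in the values: the median absolute deviation from the group means was 0.00126 (log2) for the mean of same-numbered libraries, against 0.12156 for single libraries. The fit was also run on simulated data, with noise drawn separately for each gene. That run does not address shifts that many genes of a library share.

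Values in every library are given for members called in at least 1 comparison and for NFE2L2, KEAP1 and BACH1, and other members by range. Of the other pathway genes, the 3 largest called rises and falls per comparison are named, and genes starting within 1 Mb of the AKR1B and AKR1C clusters where called. Members, role groups, pathway genes and cell type markers (hepatocyte, mesenchymal-like, epithelial, leukocyte, endothelial, fibroblast or stellate) were chosen with earlier results of these data known. Shared 3′ ends were counted in GENCODE 44 transcripts, and promoters come from RefSeq (GRCh38.p14). Alternatives were: no block, the other table over all libraries, no pseudocount, genes with a mean normalized count above 50, upper-quartile scaling, spike-in centring, the table of each pair of groups alone, and leaving out each library.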

Additional observations from a re-analysis of the deposited data

Results flagged for a closer look

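For 15 of the 38 members (39.5%, against 5.87% of all genes) the Rego effect differed between SNU449 and SNU449-Axl- by a direct test of the difference (limma, adjusted p under 0.05 over all genes). Each value is the log2 Rego effect in SNU449 minus that in SNU449-Axl-. Among the aldo-keto reductases the difference was -3.34 for AKR1B10, -2.99 for AKR1C3, -1.95 for AKR1C1 and -1.77 for AKR1C2. Among the detoxification enzymes it was -1.66 for EPHX1, -1.33 for UGDH and -0.87 for CBR1. For the glutathione genes it was -1.95 for SLC7A11, -1.68 for GCLC, -1.47 for GSR and -1.36 for GCLM. TXN had a difference of -1.85 and TXNRD1 of -1.70. The NADPH-pathway enzyme TKT had -1.63 and TRIM16L had -1.52. Calls for CBR1, SLC7A11, TRIM16L, GCLM and GCLC were lost in some fits that left out 1 library, and that for CBR1 also with spike-in centring (limma, adjusted p = 0.0704). SNU449-Axl- Rego 2 scored highest of its group in all 15 members.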

How the results depend on the processing

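Of 53 called results for single members, 22 were called under every alternative and 40 under all but leaving out a library; none changed direction. Leaving out 1 library ended 148 of 636 calls. Spike-in centring ended 8 of 53 and the tables of pairs 10 of 38. The filter above a mean normalized count of 50 ended 3 of 53 (GCLM in SNU449, NQO1 and SQSTM1). The other table, no pseudocount, upper-quartile scaling and no replicate block ended none. Of 137 member results not called, 20 passed with spike-in centring, 11 in the tables of pairs, 25 without the block, 1 with upper-quartile scaling and 30 in at least 1 fit leaving out a library. Scores of weakly expressed genes are compressed, and depth per library is unknown. With the filter and in 2 of the tables of pairs, 37 members were tested. No table of a pair gives the difference between backgrounds.

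Without the replicate block, members called were 14 (Rego in SNU449), 15 (Rego in SNU449-Axl-, against 8), 16 (Axl loss in control cells, against 10), 13 (Axl loss in Rego-resistant cells) and 20 (difference between backgrounds). That fit called 2175, 1552, 2182, 1503 and 1826 of all genes in the same order, against 1219, 678, 1163, 682 and 916. Member results that passed in this fit and under no other alternative were ALDH3A2 and CAT (Rego in SNU449), KEAP1 and TALDO1 (Rego in SNU449-Axl-), TALDO1 and UGDH (Axl loss in control cells), and ALDH3A2 and BACH1 (difference between backgrounds). With spike-in centring, 6 members were called in place of 11 for Rego in SNU449 and 22 in place of 9 for Axl loss in Rego-resistant cells, where all genes called were 1799 in place of 682. In the tables of pairs the members called were 4 in place of 11 and 14 in place of 9 in those comparisons. All genes called there were 603 for Rego in SNU449, 603 for Axl loss in control cells and 1160 for Axl loss in Rego-resistant cells. With the filter above 50, all genes called were 746, 491, 787, 450 and 652, from 8189 genes tested. The cause of the other shifts was not tested.

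Leaving out 1 library gave 5 to 11 called members for Rego in SNU449, 3 to 12 for Rego in SNU449-Axl-, 4 to 13 for Axl loss in control cells, 3 to 14 for Axl loss in Rego-resistant cells and 10 to 18 for the difference between backgrounds. For Rego in SNU449 the count was 5 without SNU449 control 1, SNU449 Rego 1 or SNU449 Rego 2, 6 without SNU449 control 2, SNU449 control 3 or SNU449-Axl- Rego 1, and 7 without SNU449-Axl- control 2. For Rego in SNU449-Axl- it was 5 without SNU449-Axl- control 2 or SNU449-Axl- Rego 1 and 3 without SNU449-Axl- Rego 2. For Axl loss in control cells it was 4 without SNU449 control 1 and 5 without SNU449 control 2 or SNU449-Axl- control 2. For Axl loss in Rego-resistant cells it was 5 without SNU449 Rego 1 or SNU449-Axl- Rego 1, 14 without SNU449 Rego 3 and 3 without SNU449-Axl- Rego 2. Over all genes, 740 to 1299, 205 to 891, 540 to 1275, 219 to 826 and 523 to 922 were called in the 5 comparisons. Of the other pathway genes, 16, 16, 13, 8 and 13 were called without the block, against 9, 9, 9, 4 and 11.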
